A study of Mus musculus with 22 samples.

Results

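Dual-function loops are chromatin loops whose anchors both carried sites co-occupied by CTCF and cohesin and both carried cis-regulatory elements (CREs), according to the category that the study gave each loop. The loops described here are those of the deposited dual-function category with a size of at most 200 kb. There are 1761 of them, 52.3% of the 3370 dual-function loops and 10.8% of all 16370 loops in the table. Their sizes ran from 70 kb to 200 kb with a median of 110 kb, and they lay on 20 chromosomes. In situ Hi-C was performed in G1E-ER4 cells, a mouse erythroblast line, here without induction of GATA1. Every cell, control cells included, carried CTCF fused to an auxin-inducible degron and mCherry (AID-mCherry) on both alleles together with the TIR protein that auxin acts through, and was arrested with nocodazole. Cells of each of 4 stages were sorted without auxin (-auxin) or with auxin added during the arrest and kept on after release (+auxin). Sorting took mCherry-positive cells as -auxin and mCherry-negative cells as +auxin. The stages were prometaphase at 0 min after release, ana/telophase at 30 min, early-G1 at 60 min and mid-G1 at 120 min. The 30 min are those of the sample titles and of the study's methods, while the treatment protocol deposited with the samples gives another time. The 18 libraries of these 8 conditions comprised 3 per mid-G1 condition and 2 per other condition, all from 1 engineered line, with ana/telophase cells taken from a derivative carrying a GFP reporter that is degraded at the end of mitosis.

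CTCF binds DNA through zinc fingers in 1 orientation and halts cohesin as it extrudes a chromatin loop, so that loop anchors tend to carry CTCF motifs that point towards each other. Cohesin-driven loops are lost from mitotic chromosomes and are rebuilt as cells enter G1. Enhancers and promoters can also contact each other without CTCF at their anchors. A dual-function anchor carries both kinds of element, so its contacts could follow either route.

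For each loop the study deposited a strength in each condition, the ratio of observed contacts to those expected from the surrounding pixels, taken as the mean of the summit and adjoining pixels. A strength of 1 means no more contacts than in the surroundings. These strengths come from replicate-merged maps, with 1 value per loop and condition. Maps of single replicates were not analysed here, so no replicate error is given and no test between treatments was run. Medians over loops carry the SD of single-chromosome medians, which measures spread along the genome and not between cultures. Shares carry 95% Wilson intervals, and these reflect counting error alone. They treat loops as independent, although 848 of the members share a summit bin with another member, and they do not measure error between cultures. A change is log2(+auxin / -auxin), negative where a loop was weaker with auxin, so that it shares its denominator with the -auxin strength, and none of the 1761 loops had a strength of 0 in any map. The number of contacts behind each loop was not among the deposited values used, which leaves the precision of single values unknown.

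The DNA at the anchors of 4 loops is shown first because these loops hold all 3 arrangements of the CTCF core that the results below compare. The core searched was CCA, any 2 bases, AG, any 2 bases and GGC, on both strands of the summit bins, and its 12 bases are in capitals within 30 bases of mm9 written 5′ to 3′ on the strand of the core. At each anchor the match nearest the middle of the summit bin is given. None of these 4 loops can be oriented by the stricter core used further on, which no printed core matches.
Urod loop, left anchor, chr4:116668606-116668635, plus strand: gtgtgtcgaCCAGCAGAGGGCggagcccgc
Urod loop, right anchor, chr4:116813419-116813448, minus strand: atctttgtgCCAGAAGAGGGCatcagatcc
Epor to Acp5 loop, left anchor, chr9:21765956-21765985, plus strand: ataggtgctCCAGGAGGTGGCagccagcgc
Epor to Acp5 loop, right anchor, chr9:21946443-21946472, minus strand: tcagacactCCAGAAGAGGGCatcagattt
Lmo2 loop, left anchor, chr2:103713441-103713470, plus strand: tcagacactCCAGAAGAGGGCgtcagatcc
Lmo2 loop, right anchor, chr2:103811110-103811139, plus strand: aaagtttgcCCAGGAGCTGGCacccggagc
Atp13a3 to Lsg1 loop, left anchor, chr16:30373477-30373506, minus strand: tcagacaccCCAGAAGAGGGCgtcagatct
Atp13a3 to Lsg1 loop, right anchor, chr16:30568175-30568204, plus strand: tcagacacaCCAGAAGAAGGCgtcaggtct
In the Urod and Epor to Acp5 loops the cores were convergent, with the plus strand at the left anchor and the minus strand at the right anchor. In the Lmo2 loop both cores lay on the plus strand. In the Atp13a3 to Lsg1 loop the cores were divergent. The left cores of the Urod and Epor to Acp5 loops fell in exons of Hectd3 and Epor, the right core of the Lmo2 loop in an intron of Lmo2, the Atp13a3 core in an intron and the Lsg1 core in an exon, and the other cores in no protein-coding gene of GENCODE vM1.

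Without auxin, short dual-function loops were near the level of their surroundings in prometaphase and above it from ana/telophase on. The median strength was 1.03 ± 0.02 (SD over 20 chromosomes) in prometaphase, with quartiles of 0.865 and 1.21. It was 1.502 ± 0.08 in ana/telophase (quartiles 1.21 and 1.84), 1.73 ± 0.10 in early-G1 (1.35 and 2.15) and 1.74 ± 0.11 in mid-G1 (1.33 and 2.23). The step from prometaphase to ana/telophase was larger than the chromosome spread, whereas early-G1 and mid-G1 differed by less than that spread. Of the 1761 loops, 1648 (93.6%) were stronger in ana/telophase than in prometaphase, 1493 (84.8%) were stronger in early-G1 than in ana/telophase and 980 (55.7%) were stronger in mid-G1 than in early-G1. Mid-G1 was the stage of highest strength for 920 loops, early-G1 for 647, ana/telophase for 157 and prometaphase for 37.

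With auxin the median of the same loops was lower at each post-mitotic stage. Loops entered the table by being called on these same maps, 65.4% of members without auxin only and 11.2% with auxin only. The change is thus not independent of the calling, and how far the calling shaped it was not tested. The prometaphase median was 1.00 ± 0.04 (quartiles 0.819 and 1.16) and that of ana/telophase 1.25 ± 0.04 (1.01 and 1.48). Early-G1 had 1.32 ± 0.08 (1.06 and 1.63) and mid-G1 1.31 ± 0.10 (1.05 and 1.58). The median log2 change went from -0.04 ± 0.06 in prometaphase and -0.26 ± 0.07 in ana/telophase to -0.40 ± 0.09 in early-G1 and -0.46 ± 0.07 in mid-G1. Over all loops of the table the medians were -0.04, -0.21, -0.32 and -0.38. Relative to that shift of all loops, the members were lower by a further -0.09 in mid-G1. In mid-G1, 1446 of 1761 members (82.1%, interval 80.3 to 83.8%) were weaker with auxin, against 966 (54.9%, 52.5 to 57.2%) in prometaphase. Of all loops, 77.1% were weaker in mid-G1 and 54.4% in prometaphase.

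**Figure D1:**
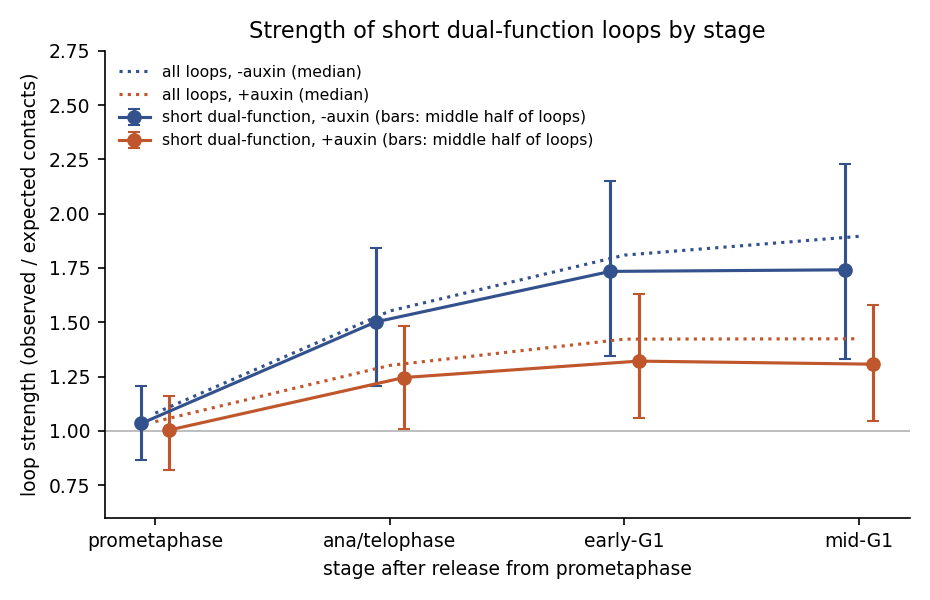
Loop strength (ratio of observed to expected contacts) of the 1761 short dual-function loops at 4 stages without auxin (blue) and with auxin (orange), as medians with bars from the lower to the upper quartile of loops, beside the medians of all 16370 loops (dotted). The -auxin median climbed from 1.03 to 1.74 and the +auxin median from 1.00 to 1.31, and in each treatment the last 2 stages lay within the chromosome spread of each other.

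A fold of 1.5 between the maps was used to count loops. In prometaphase, 116 members (6.59%) were at least 1.5-fold weaker with auxin and 70 (3.98%) at least 1.5-fold stronger, against 9.52% and 6.46% of all loops. In ana/telophase the counts were 366 weaker (20.8%, against 20.4% of all loops) and 7 stronger (0.398%, against 0.886%). In early-G1 they were 612 weaker (34.8%, against 31.4%) and 43 stronger (2.44%, against 2.55%). In mid-G1 they were 698 weaker (39.6%, interval 37.4 to 41.9%, against 36.7%) and 48 stronger (2.73%, 2.06 to 3.60%, against 2.83%). In prometaphase both shares lay below those of all loops. After mitosis the weaker share lay above that of all loops, beyond the counting interval in early-G1 and mid-G1 and within it in ana/telophase. The stronger share lay below that of all loops, beyond the interval in ana/telophase and within it in early-G1 and mid-G1. The order of the weaker shares depended on the fold: at 2-fold it turned, with 12.1% of members and 16.8% of all loops weaker in mid-G1, while at 1.2-fold it was 65.5% and 58.4%. At all 3 post-mitotic stages 310 members (17.6%) were at least 1.5-fold weaker, against 16.3% of all loops, and 2 members (0.114%) were at least 1.5-fold stronger, against 0.214%. By sign alone, 1250 members (71.0%, interval 68.8 to 73.1%) were weaker at all 3 stages and 195 (11.1%, 9.69 to 12.6%) stronger at all 3, against 61.4% and 12.5% of all loops.

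The prometaphase maps give a descriptive scale for these changes, since loop strength was near 1 in both treatments there. It is not the error of the later maps. Prometaphase had 2 libraries per condition and mid-G1 3, and auxin was already present in prometaphase. The central 95% of members had prometaphase changes between -0.79 and 0.67. In mid-G1, 424 members (24.1%) had a change below the lower end of that range and 27 (1.53%) a change above its upper end, against 26% and 1.75% of all loops. In ana/telophase these counts were 166 (9.43%) and 3 (0.170%), against 10.9% and 0.483%. In early-G1 they were 345 (19.6%) and 28 (1.59%), against 20.2% and 1.56%. The range is that of the members, and in prometaphase itself 4.51% of all loops lay below it and 4.67% above it, so these shares are not on an equal footing.

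Most of the -auxin rise was in place by ana/telophase. Of the rise of the mean strength up to mid-G1, 64.5% ± 4.50 (SD over chromosomes) had been covered in ana/telophase and 94.7% ± 2.50 in early-G1. With auxin the rise was smaller. Set against the -auxin rise to the same stage, the +auxin rise was 50.8% ± 7.79 at ana/telophase, 46.9% ± 6.75 at early-G1 and 40.1% ± 5.78 at mid-G1. Over all loops it was 54.4% ± 3.56, 50.8% ± 2.80 and 42.8% ± 2.12, within the chromosome spread of the members. The strength was higher at each stage than at the one before in 802 members (45.5%) without auxin and in 355 (20.2%) with auxin.

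The study also recorded the stage at which each loop was first called in each treatment. Of the members, 1151 (65.4%, interval 63.1 to 67.5%) were called without auxin only, 412 (23.4%, 21.5 to 25.4%) in both treatments and 198 (11.2%, 9.85 to 12.8%) with auxin only. Over all loops these shares were 71.1%, 14.4% and 14.6%. They were 91.6%, 5.82% and 2.56% in short structural loops and 42.3%, 29.5% and 28.1% in short CRE loops, the categories described below. Among the 1563 members called without auxin, ana/telophase was the first call of 581 (37.2%, 34.8 to 39.6%), early-G1 of 654 (41.8%, 39.4 to 44.3%) and mid-G1 of 328 (21.0%, 19.0 to 23.1%). Over all loops called without auxin these shares were 20.7%, 40.0% and 39.3%, over short structural loops 17.2%, 41.5% and 41.3%, and over short CRE loops 31.5%, 44.9% and 23.6%. Among the 412 called in both treatments, 200 (48.5%) were first called at the same stage, 174 (42.2%) at a later stage with auxin and 38 (9.22%) at an earlier stage with auxin, against 50.8%, 32.9% and 15.9% of the 2350 loops of every kind called in both. The calls were made on the same maps as the strengths, so the strengths of these classes are a description. Members called without auxin only had a median mid-G1 change of -0.59 ± 0.06, those called in both treatments -0.29 ± 0.16, and those called with auxin only 0.30 ± 0.16. Among the members called with auxin only, 20.2% were at least 1.5-fold stronger with auxin in mid-G1.

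Members that were strong without auxin had the more negative changes. Ordered by their early-G1 strength without auxin, the lowest quartile group of members had a median mid-G1 change of -0.14 ± 0.17, followed by -0.37 ± 0.12, -0.49 ± 0.13 and, in the highest group, -0.79 ± 0.14. The highest group had the lower change on 15 of 15 chromosomes, and it also had the higher mid-G1 strength with auxin, 1.60 against 0.996. The lowest group had a median size of 70 kb and a mid-G1 strength without auxin of 1.10, near the level of the surroundings. The highest group had 140 kb and 2.69, so the groups differed in size as well. At least 1.5-fold weakening was found in 17.2%, 30.5%, 41.6% and 69.3% of the 4 groups. The early-G1 map ordered the loops and the mid-G1 maps gave the change, but both -auxin maps come from the same cell line and loops.

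Strength was lowest at the short end of the size range. The 343 members of 70 kb, the smallest size in the table and 19.5% of all members, had medians of 0.705 in prometaphase and 1.13 in mid-G1 in -auxin maps, and of 0.904 in the mid-G1 +auxin map. Members of 80 to 100 kb had mid-G1 medians of 1.70 without and 1.33 with auxin, those of 110 to 150 kb had 1.93 and 1.41, and those of 160 to 200 kb had 1.99 and 1.44. The 70 kb loops were weaker than those of 160 to 200 kb on 15 of 15 chromosomes with at least 10 loops of each, in each treatment. The change differed less: the medians were -0.37 ± 0.17 at 70 kb, -0.47 ± 0.09 at 80 to 100 kb, -0.48 ± 0.15 at 110 to 150 kb and -0.52 ± 0.16 at 160 to 200 kb, so that these classes overlapped within the chromosome spread. Short structural loops of 70 kb (1.20 in mid-G1 without auxin) and short CRE loops of 70 kb (1.01) were likewise the weakest size class of their category. The 66 members whose summit was called at 25 kb had a mid-G1 median of 1.29 without auxin and a change of -0.14, against 1.76 and -0.48 for the 1695 with a 10 kb summit.

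**Figure D2:**
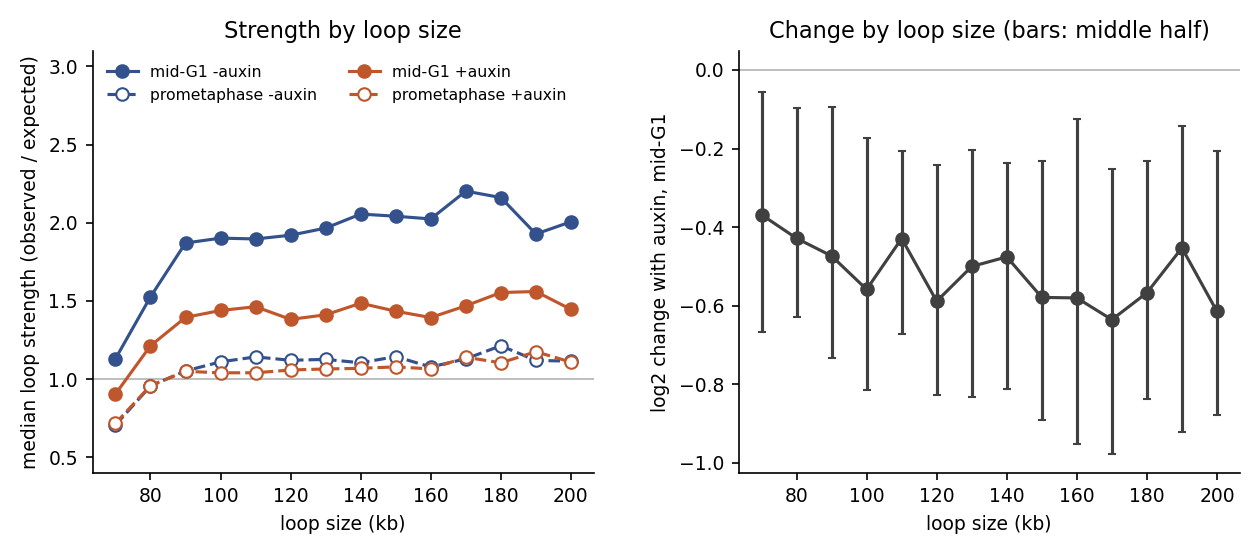
Left, median strength (observed over expected) of members with a 10 kb summit by loop size in kb, in mid-G1 (filled) and prometaphase (open) without (blue) and with auxin (orange). Right, median log2 change in mid-G1 by size, with bars from the lower to the upper quartile. Strength is lowest at 70 kb in all 4 maps shown, while the quartile bars of the change overlap at every size.

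Loops on either side of the 200 kb limit had values as follows. The medians of the 90 members of 200 kb in mid-G1 were 1.92 without and 1.36 with auxin, and the 57 dual-function loops of 210 kb had 2.15 and 1.62. Some members of 200 kb had 25 kb summits, and the 73 with 10 kb summits had medians of 2.01 and 1.45. The strongest 200 kb member joined chr5:147510001-147520000 with chr5:147710001-147720000, bins with no protein-coding gene, and the strongest 210 kb loop joined the starts of Tbc1d14 and Cno. The former measured 4.57 without and 1.32 with auxin in mid-G1, and the latter 4.93 and 3.39.

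Compared with the categories most like them, short dual-function loops lay between short structural loops, which have CTCF and cohesin at both anchors but CREs at no more than 1, and short CRE loops, which have CREs at both anchors but CTCF and cohesin at no more than 1. The median mid-G1 change was -0.46 in members, -0.70 ± 0.13 in 2029 structural loops up to 200 kb and -0.02 ± 0.04 in 2270 CRE loops up to 200 kb. The median of the members was higher than that of short structural loops by 0.24 ± 0.13 and on 20 of 20 chromosomes. It was lower than that of short CRE loops by -0.44 ± 0.08, also on 20 of 20 chromosomes. The shares called without auxin only had the same order, at 91.6% in short structural loops, 65.4% in members and 42.3% in short CRE loops. Whether the calling shaped these differences was not tested. The 1609 dual-function loops above 200 kb had a median of -0.41 ± 0.13. The difference of -0.05 ± 0.17 from them was smaller than the chromosome spread, with members lower on 10 of 19 chromosomes, and its sign turned when mean strengths were compared or loops with 25 kb summits were left out.

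**Figure D3:**
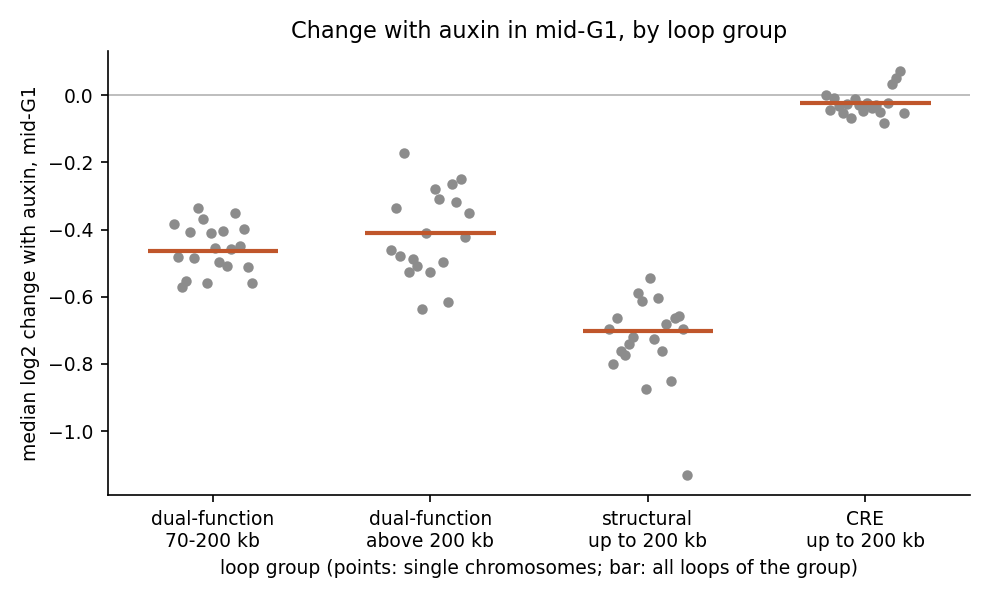
Median log2 change with auxin in mid-G1 for 4 loop groups, with a point for each chromosome holding at least 10 loops of the group and a bar for the median of all its loops. The points of short dual-function loops lie above the structural and below the CRE points of the same chromosomes and overlap those of dual-function loops above 200 kb.

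For the course of the rise too, members lay between short structural and short CRE loops. By the stage of first call without auxin they did not. Ana/telophase was the first call of 37.2% of members, against 17.2% of short structural and 31.5% of short CRE loops. Mid-G1 was the first call of 21.0%, against 41.3% and 23.6%. By ana/telophase without auxin, members had covered 64.5% of their rise, short structural loops 46.4% ± 3.01, dual-function loops above 200 kb 58.8% ± 5.40 and short CRE loops 86.6% ± 8.02. The share of the mid-G1 rise kept with auxin was 40.1% in members, 22.7% ± 5.44 in short structural loops, 45.2% ± 5.24 in longer dual-function loops and 93.6% ± 13.3 in short CRE loops. In mid-G1 members had a median +auxin strength of 1.31, between 1.19 in short structural and 1.44 in short CRE loops, and a -auxin strength of 1.74, between 1.92 and 1.44.

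Among the members, the change with auxin varied with the presence of promoters at the anchors. A transcription start of a protein-coding gene lay in neither summit bin of 583 members (33.1%, interval 30.9 to 35.3%), in 1 bin of 705 (40.0%, 37.8 to 42.3%) and in both bins of 473 (26.9%, 24.8 to 29.0%). The median mid-G1 change was -0.62 ± 0.10 with no start, -0.47 ± 0.11 with 1 and -0.23 ± 0.13 with 2. Members without a start had the lower median on 16 of 16 chromosomes that held at least 10 loops of each of the outer classes, by -0.39 ± 0.16. The classes lay further apart in the -auxin maps than in the +auxin maps. The mid-G1 median without auxin was 1.93 with no start, 1.75 with 1 and 1.51 with 2, and with auxin it was 1.30, 1.31 and 1.33. At least 1.5-fold weakening in mid-G1 was found in 53.2%, 40.7% and 21.4% of the 3 classes, and at least 1.5-fold strengthening in 1.37%, 2.13% and 5.29%. The share of the rise kept with auxin was 31.4% ± 6.40, 41.6% ± 10.3 and 57.1% ± 17.8. The classes kept this order in the other categories too, with medians of -0.81, -0.52 and -0.14 in dual-function loops above 200 kb, -0.76, -0.63 and -0.52 in short structural loops, and -0.13, -0.03 and 0.11 in short CRE loops.

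A second property of position went with the change. A structural loop crossed 563 members (32.0%, interval 29.8 to 34.2%), with 1 of its anchors between the anchors of the member and the other outside. Crossed members had a median mid-G1 change of -0.26 ± 0.14 and the 1198 others -0.54 ± 0.08, and the others were lower on 17 of 17 chromosomes. Without auxin, crossed members were weaker in mid-G1 (1.62 against 1.80), and with auxin the medians were 1.35 and 1.28. The order held within each class of starts. With no start at the anchors the median change was -0.66 in uncrossed and -0.50 in crossed members, with 1 start -0.56 and -0.25, and with 2 starts -0.32 and -0.07. The other categories had the same order of uncrossed and crossed loops. Their medians were -0.62 and -0.29 in dual-function loops above 200 kb and -0.75 and -0.63 in short structural loops. In short CRE loops they were -0.10 and 0.25. A structural loop enclosed 608 members (34.5%, 32.3 to 36.8%). The 414 that were enclosed and not crossed had a median change of -0.55 ± 0.10, and 0.242% of them were at least 1.5-fold stronger with auxin. The 369 that were crossed and not enclosed had a change of -0.24 ± 0.22, and 7.32% of them were at least 1.5-fold stronger. The 784 members that no structural loop crossed or enclosed had a change of -0.52 ± 0.09.

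**Figure D4:**
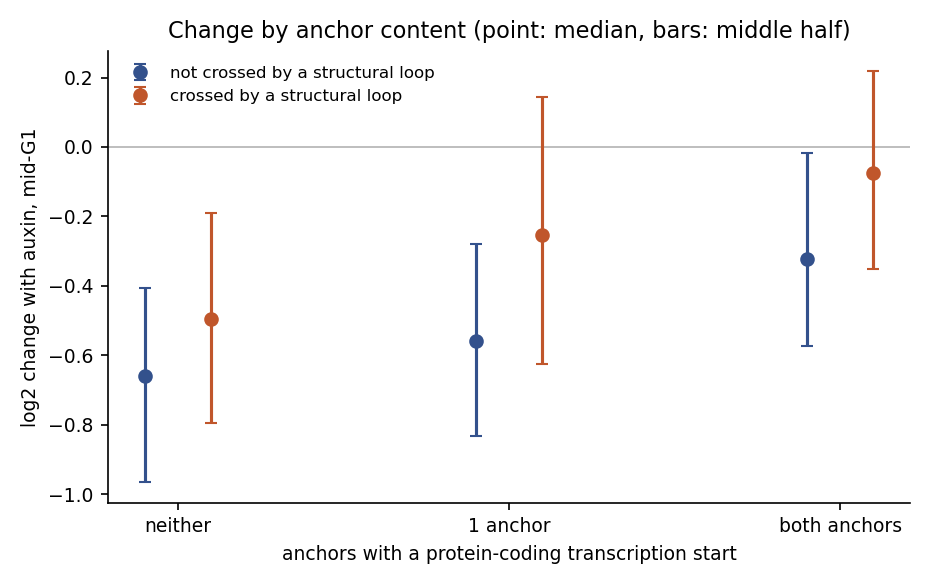
Log2 change with auxin in mid-G1 of short dual-function loops with a protein-coding transcription start in neither, 1 or both summit bins, split by whether a structural loop crossed them (orange) or not (blue). Points are medians and bars run from the lower to the upper quartile. The medians go from -0.66 for uncrossed loops with no start to -0.07 for crossed loops with 2 starts.

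Summit bins of 10 kb were counted by anchor of each member, 3390 in all, so that a bin shared by members counts more than once. The CTCF core described above was present in 76.9% of them, against 37.8% of all 10 kb bins of the genome. Since CTCF occupancy was part of the category, this share is a description and not a result. Matches at both anchors were found in 1083 members, at 1 anchor in 561 and at neither in 117, with mid-G1 medians of 1.77, 1.69 and 1.74 without auxin, and changes of -0.50 ± 0.08, -0.41 ± 0.13 and -0.33 ± 0.15. A stricter core with C directly after CCA was found in 23.1% of summit bins and 6.45% of genomic bins. All matches lay on a single strand at each anchor in 412 members, which could therefore be oriented. Of these, 176 (42.7%, interval 38.0 to 47.5%) were convergent, 188 (45.6%, 40.9 to 50.5%) had both cores on the same strand and 48 (11.7%, 8.90 to 15.1%) were divergent. Convergent members had the most negative change of the 3 arrangements. Their median mid-G1 strength without auxin was 2.00 and their change -0.61 ± 0.15, while same-strand members had 1.76 and -0.41 ± 0.16 and divergent members 1.51 and -0.40. Convergent members had the lower change on 8 of 8 chromosomes with at least 10 loops of both kinds. With auxin the median strengths were 1.34, 1.35 and 1.15. The changes had this order elsewhere too, at -0.80, -0.62 and -0.53 in short structural loops. They were -0.63, -0.57 and -0.25 in dual-function loops above 200 kb and -0.10, -0.03 and 0.10 in short CRE loops. With the stricter core 102 members could be oriented, of which 46 (45.1%, 35.8 to 54.8%) were convergent with a change of -0.65. A further 45 (44.1%, 34.9 to 53.8%) had both cores on the same strand with -0.48, and 11 (10.8%, 6.13 to 18.3%) were divergent with -0.07. Among short structural loops 42.5% of oriented pairs were convergent by the main core and 12.1% divergent, and among short CRE loops 26.7% and 22.4%. By the stricter core, 62.5% (54.4 to 69.99%) of 144 oriented short structural loops were convergent and 2.78% (1.09 to 6.92%) divergent, and 24.2% and 24.2% of 33 short CRE loops.

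A single 12-base word made up much of the matches. CCAGAAGAGGGC, the core shown above for the right anchor of the Urod loop and for 3 other anchors, accounted for 1974 of the 4442 core matches in the 2846 summit bins of members (44.4%), and for 35.8% of the 140582 matches in the genome. The next most frequent of the 225 words was found 115 times in these bins. As background, mouse B2 repeats are known to carry a CTCF motif. No repeat annotation was used here, so whether these matches lie in repeats was not tested. Without this word, 397 members could be oriented, of which 179 (45.1%) were convergent with a median change of -0.66, 172 had both cores on the same strand with -0.42, and 46 (11.6%) were divergent with -0.39.

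Domain boundaries were found at the anchors of some members. A deposited boundary overlapped the 30 kb window around both summits in 48 members (2.73%, interval 2.06 to 3.60%), around 1 summit in 582 (33.0%, 30.9 to 35.3%) and around neither in 1131 (64.2%, 62.0 to 66.4%). Both anchors had a boundary in 3.15% of short structural loops, 1.63% of short CRE loops and 10.4% of dual-function loops above 200 kb. Among members the median mid-G1 change was -0.44 with a boundary at both anchors, -0.45 with a boundary at 1 and -0.47 with none, and these classes differed by less than the chromosome spread. In all, 457 of the 6376 boundaries lay at a member's anchor. Boundary strength was deposited as ΔIS, the rise of the insulation score from the boundary to its highest value within 120 kb. At member anchors the mid-G1 median of ΔIS was 0.997 without and 0.572 with auxin (log2 change -0.73 ± 0.16), against 0.499 and 0.332 and a change of -0.48 ± 0.06 over all boundaries. By the study's own boundary clusters, which were made from these boundary values, 259 (56.7%, 52.1 to 61.1%) of the 457 were cluster2, against 31.9% of all boundaries, 107 (23.4%) were cluster3 against 27.1%, 78 (17.1%) were cluster1 against 20.4%, 12 were cluster4 and 1 was cluster5.

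Members shared anchors with each other and with other loops. Their 2977 distinct summit bins included 415 used by 2 members and 61 used by 3 or more, and 848 members (48.2%) shared a bin with another member. Among 622 pairs of members with a shared bin, the median difference between the mid-G1 changes of the pair was 0.36 on the log2 scale, and 137 pairs (22.0%) had changes of opposite sign. Both loops of the pair were at least 1.5-fold weaker with auxin in 159 pairs and at least 1.5-fold stronger in 2. Of single members in mid-G1, 39.6% were at least 1.5-fold weaker, 2.73% at least 1.5-fold stronger and 82.1% weaker by sign. Pairs without a shared bin were not examined, so whether a shared anchor goes with a like change was not tested.

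Single loops show how wide the range was. The strongest member in mid-G1 joined chr1:193810001-193820000, with no protein-coding gene, to chr1:193910001-193920000, which holds the start of Traf5, an adaptor of tumour necrosis factor receptors. In stage order from prometaphase to mid-G1, as in all lists of 4 values here, its -auxin strengths were 4.63, 5.48, 6.71 and 7.52, and its +auxin strengths 4.53, 4.55, 5.04 and 4.905. It was already above 4 in prometaphase, in both treatments. The loop with the highest ana/telophase strength spanned 90 kb on chromosome 5 between the start of Eif2ak1, the gene of a haem-regulated kinase, and a bin with exons of Eif2ak1 and Aimp2. It had -auxin strengths of 5.01, 6.03, 4.05 and 4.63 and +auxin strengths of 5.56, 6.28, 4.52 and 4.82. In all, 7 members had a -auxin strength of at least 2 in prometaphase, and how their reads mapped was not tested. The Hoxc9 loop of 190 kb, at a homeobox gene, had -auxin strengths of 1.71, 4.58, 5.39 and 5.89 and +auxin strengths of 1.10, 2.12, 2.54 and 2.95. The 150 kb loop at Rcor3, which encodes a corepressor, reached 5.84 without and 2.51 with auxin in mid-G1, and the 170 kb loop of Zfp954 and Clcn4-2 5.76 and 5.43.

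The members with the most negative mid-G1 change, among those of at least 1.5 without auxin and weaker at all 3 post-mitotic stages, were at 1.32 or less with auxin in mid-G1. The 150 kb loop at 4930578N16Rik and Phospho2 on chromosome 2 had -auxin strengths of 1.21, 1.22, 1.70 and 2.04 and +auxin strengths of 1.23, 0.65, 0.65 and 0.51, a mid-G1 change of -2.01. The 170 kb loop at Dcbld2 on chromosome 16 was at 2.33 without and 0.59 with auxin, a change of -1.98. The 170 kb loop from Gng7, a G-protein subunit gene, to the bin of Pias4 and of Eef2, the translation elongation factor, had 2.20 and 0.60, a change of -1.87. The 200 kb loop on chromosome 5 named above had -auxin strengths of 0.92, 3.41, 4.00 and 4.57 and +auxin strengths of 1.09, 1.29, 1.32 and 1.32, a change of -1.79. It was the strongest of these 4 loops without auxin, and was weaker with auxin in each post-mitotic map and not in prometaphase.

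Other members were the stronger ones in +auxin maps from ana/telophase on. The 180 kb loop from Mtx1, a mitochondrial import gene, to Zbtb7b, a zinc finger transcription factor gene, joined chr3:89010001-89020000 and chr3:89190001-89200000. Its -auxin strengths went from 1.56 through 1.40 and 1.12 to 0.71, and its +auxin strengths were 1.43, 2.03, 1.86 and 1.64, a mid-G1 change of 1.20. The 190 kb Atp13a3 to Lsg1 loop, whose divergent cores are printed above, had -auxin strengths of 1.51, 1.56, 1.51 and 1.07 and +auxin strengths of 1.95, 2.18, 2.38 and 2.35. The 140 kb loop from Afmid to Socs3, an inhibitor of cytokine signalling, was at 0.78 without and 1.66 with auxin in mid-G1, and the 170 kb loop from Kdm6b, a histone demethylase gene, to Trp53 had 1.30 and 2.74. Each of these 4 loops was crossed by at least 1 structural loop, and by 8 in the case of Mtx1 to Zbtb7b.

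Other members hardly differed between treatments. A change within 0.1 of 0 at all 3 post-mitotic stages was found in 32 members (1.82%), against 2.04% of all loops. The strongest of them joined a pair of starts of Runx1, a transcription factor of blood stem cells, over 130 kb, with -auxin strengths of 1.19, 2.03, 2.17 and 2.25 and +auxin strengths of 1.19, 1.93, 2.31 and 2.37. The Casq1 to Igsf8 loop had mid-G1 strengths of 2.06 and 1.92, the Sepx1 to Fahd1 loop 1.98 and 2.10, and the Kdm6b to Shbg loop 1.91 and 1.79. The last shared its Kdm6b anchor, chr11:69220001-69230000, with the Kdm6b to Trp53 loop, both were crossed by 4 structural loops, and their mid-G1 changes were -0.10 and 1.08.

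**Figure D5:**
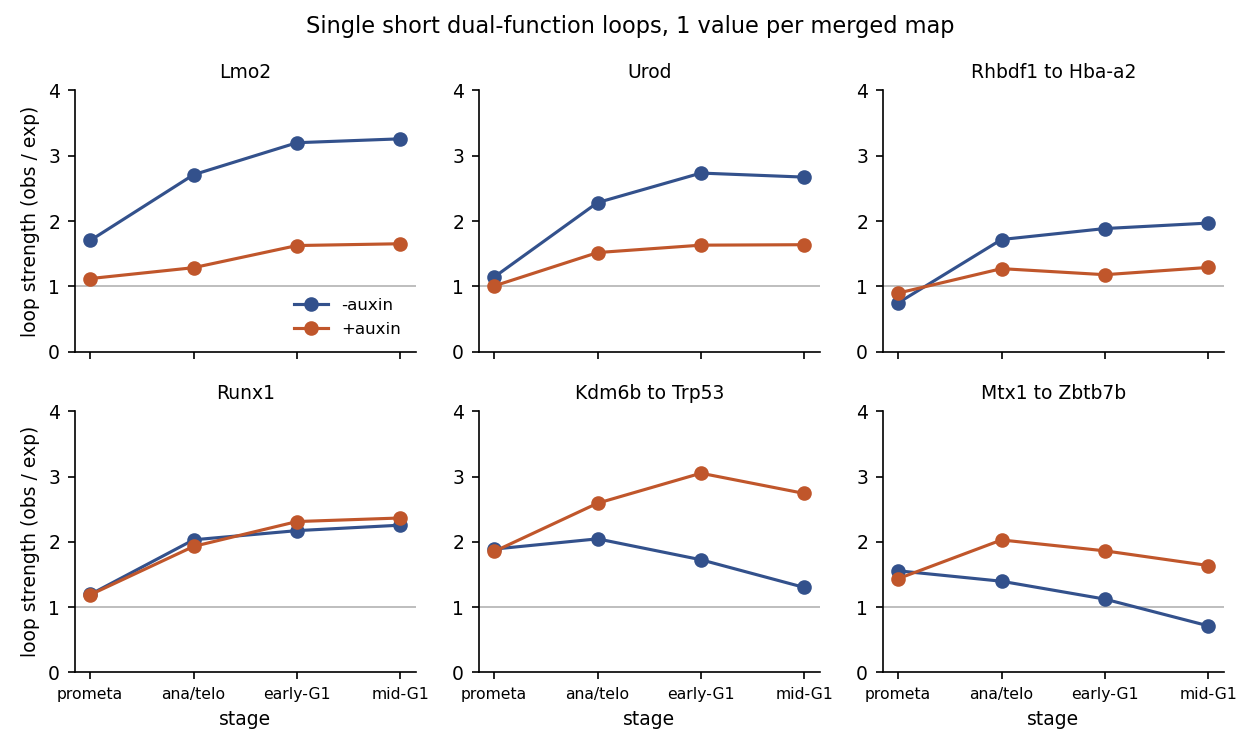
Strength of 6 short dual-function loops (observed over expected contacts, 1 value per merged map) at 4 stages without auxin (blue) and with auxin (orange). The Lmo2, Urod and Hba-a2 loops are lower with auxin at each post-mitotic stage, the Runx1 loop is nearly the same in both, and the Kdm6b to Trp53 and Mtx1 to Zbtb7b loops are higher with auxin at each post-mitotic stage.

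Loops at genes of the erythroid programme, of chromosome structure and of the cell cycle were looked up from lists of genes. Over all annotated protein-coding genes, 1635 of 22232 (7.35%) had a start in a summit bin of a member, and over all loops 36.7% were at least 1.5-fold weaker and 2.83% at least 1.5-fold stronger in mid-G1, against which the counts below can be read. Up to 4 loops per list were taken by their mid-G1 strength without auxin, and loops past the fold that this rule left out were added after their values were seen. Of 27 annotated genes of erythroid transcription, 9 had a start at a member's anchor, with 11 loops whose median mid-G1 change was -0.10. In this list 2 loops were at least 1.5-fold weaker and 1 at least 1.5-fold stronger. The strongest in mid-G1 without auxin joined Lmo2, which encodes a bridging factor of the GATA1 complex, to a bin 100 kb away with no protein-coding gene. Its -auxin strengths were 1.70, 2.71, 3.20 and 3.26 and its +auxin strengths 1.12, 1.29, 1.62 and 1.65. The Ikzf1 loop, at a zinc finger factor gene of lymphoid and erythroid cells, had 1.99 and 1.66 in mid-G1, and the Stat5a to Ptrf loop, at a gene for a factor that acts downstream of the erythropoietin receptor, had 1.95 and 1.23. The loop past the fold in the other direction joined Rpn1 to Gata2, a transcription factor of blood progenitors, over 110 kb. It had -auxin strengths of 1.14, 0.86, 0.84 and 0.78 and +auxin strengths of 1.39, 1.39, 1.55 and 1.36.

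Of 26 annotated genes of erythroid receptors and membrane, 6 had a start at a member, with 8 loops, a median change of -0.25 and 3 loops at least 1.5-fold weaker. The loop within Epb4.1, a gene of the red cell membrane skeleton, had -auxin strengths of 1.33, 2.00, 2.12 and 2.36 and +auxin strengths of 0.63, 1.05, 1.27 and 1.36. Its prometaphase values differed by as much as its later ones, with log2 changes of -1.08 in prometaphase and -0.79 in mid-G1. The loop from Epor, the erythropoietin receptor gene, to Acp5 had 2.24 and 1.75 in mid-G1. The loops at Slc40a1, the iron exporter gene, with 1.98 and 2.01, and at Cd47, with 1.72 and 1.56, differed less. The other loops past the fold were weak without auxin too. The 70 kb loop at Spnb1, the gene of erythroid beta-spectrin, had 1.06 and 0.66, and the 100 kb loop from Icam4, a red cell adhesion gene, to Tyk2 had 1.26 and 0.83.

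Of 20 annotated haem and globin genes, 2 had a start at a member, and both loops were at least 1.5-fold weaker in mid-G1. Urod encodes an enzyme of haem synthesis. Its loop over 150 kb had -auxin strengths of 1.14, 2.28, 2.73 and 2.67 and +auxin strengths of 1.00, 1.52, 1.63 and 1.64. The 80 kb loop from Rhbdf1 to the alpha-globin gene Hba-a2 had -auxin strengths of 0.75, 1.72, 1.88 and 1.97 and +auxin strengths of 0.90, 1.27, 1.18 and 1.29. Alpha-globin genes are near-identical copies, and how reads were placed between them was not examined.

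Of 26 annotated genes of cohesin, condensin and CTCF itself or related factors, 6 had a start at a member, with 8 loops and a median change of 0.06. None of these loops was at least 1.5-fold weaker and 1 was at least 1.5-fold stronger. That loop joined Maz, a zinc finger factor gene, to Cd2bp2 over 160 kb, with -auxin strengths of 1.49, 1.504, 1.49 and 1.27 and +auxin strengths of 1.71, 2.21, 2.43 and 2.08. From the same Maz bin, a 70 kb loop in the same direction had 1.43 and 1.15 in mid-G1. The loop from Nck1 to Stag1, a cohesin subunit gene, had 1.91 and 1.47, and that from Brca2 to Pds5b, a cohesin regulator gene, 1.58 and 1.19.

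Of 39 annotated cell cycle genes, 8 had a start at a member, with 12 loops, a median change of -0.09, 1 loop at least 1.5-fold weaker and 3 at least 1.5-fold stronger. At Ccnd3, the gene of cyclin D3, an 80 kb loop within the gene had -auxin strengths of 1.21, 2.58, 3.16 and 3.30 and +auxin strengths of 1.04, 2.21, 2.46 and 2.22. A 180 kb loop from Ccnd3 to Tomm6 had 2.20 and 0.95 in mid-G1. The loop at Cdk6, a partner of cyclin D, had 2.03 and 1.80. The 3 stronger loops were called with auxin only. The bin with the starts of Cdk4, a further partner of cyclin D, and Tspan31 was joined to Arhgef25 over 120 kb, with 1.13 without and 1.86 with auxin in mid-G1, and to B4galnt1 over 100 kb, with 1.14 and 1.79. The 180 kb loop from Spryd3 to Espl1, the gene of separase, had 1.04 and 1.67. The loop from Cdkn1a, the gene of the p21 inhibitor, to Ppil1 was called with auxin only, yet its -auxin strengths of 1.37, 2.55, 1.73 and 1.93 and +auxin strengths of 1.51, 1.72, 2.48 and 2.06 crossed from stage to stage.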

How the data were processed

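The authors aligned Hi-C reads to mm9 with HiC-Pro, merged the replicates of each condition, built maps with juicer_tools and ran a modified HICCUPS on 10 and 25 kb bins. Loop strength was deposited as a ratio, observed contacts over a donut-shaped local expectation, averaged over 9 pixels. The deposited boundary strength is a signal, ΔIS, from unlogged insulation scores. The categories, the first stage of detection and the clusters of boundaries were taken as the authors labelled them. Loop sizes and coordinates are in bases, as deposited.

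From these values, log2(+auxin / -auxin) was computed without a pseudocount, with medians, SDs of single-chromosome medians (chromosomes with at least 10 loops) and Wilson intervals. No test was run, because the strengths are those of merged maps, 1 value per condition. Gene positions came from GENCODE vM1, protein-coding genes alone, and sequence was read from NCBIM37, which is mm9. A boundary counted at an anchor when its 10 kb bin overlapped a 30 kb window on the summit. Crossing and enclosing were decided from anchor midpoints. The 5 gene lists covered erythroid transcription, erythroid receptors and membrane, haem and globin, cohesin, condensin and CTCF, and the cell cycle.

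Loops named in the text are the 4 strongest in mid-G1 without auxin, the 4 with the most negative and the 4 with the most positive mid-G1 change among those of at least 1.5 in the stronger map and of 1 sign at all 3 post-mitotic stages, the 4 strongest within 0.1 of 0 at those stages, the 3 strongest in ana/telophase, up to 4 per gene list by mid-G1 strength without auxin, and the strongest at the size limit on either side. Members, lists and rules were chosen with earlier results of these data known. The overlap geometry, the motif search and the fold counts were tested on simulated data or against brute force. No value of the 4 triptolide libraries entered. Alternatives covered pseudocounts, folds, centring, size, summit width, window widths, the core and chromosome 3 left out. Software was pandas 2.3.3, numpy 2.4.6, scipy 1.17.1 and matplotlib 3.10.9 under Python 3.11.15.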

Additional observations from a re-analysis of the deposited data

How the results depend on the processing

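No paired analysis was made and no replicate was left out, because the loop strengths used are those of replicate-merged maps. Maps of single replicates were not analysed here. Direction held for the median changes under every alternative tried. With a pseudocount of 0.5 the median changes of the 3 post-mitotic stages, in order, were -0.18, -0.29 and -0.34. Centred on the median of all loops they were -0.0484, -0.0806 and -0.0856, since the median of all loops was also below 0. Among members that reached 1.5 in mid-G1 without auxin they were -0.38, -0.54 and -0.61, a subset chosen on the map in the denominator. The difference from dual-function loops above 200 kb turned to 0.0343 for the ratio of mean strengths and to 0.11 for 10 kb summits only, and that from short CRE loops was -0.32 with the pseudocount. Counts followed the fold. Weaker members at these stages numbered 61, 168 and 213 at 2-fold, 877, 1100 and 1154 at 1.2-fold, and 166, 358 and 438 with the pseudocount. At 2-fold these were 3.46%, 9.54% and 12.1% of members, against 5.34%, 12.3% and 16.8% of all loops, at 1.2-fold 49.8%, 62.5% and 65.5% against 44.8%, 54.0% and 58.4%, and with the pseudocount 9.43%, 20.3% and 24.9% against 11.3%, 21.4% and 27.2%. The members' share lay above that of all loops at 1.5-fold and 1.2-fold and below it at 2-fold and with the pseudocount. Stronger members numbered 0, 4 and 4 at 2-fold, 104, 145 and 152 at 1.2-fold, and 0, 10 and 9 with the pseudocount. Over all loops the stronger shares were 0.0672%, 0.232% and 0.299% at 2-fold, against 0%, 0.227% and 0.227% of members, 7.35%, 10.1% and 10.1% at 1.2-fold, against 5.91%, 8.23% and 8.63%, and 0.220%, 0.904% and 0.886% with the pseudocount, against 0%, 0.568% and 0.511%. When a loop counted as present at a strength of 1.5 in any post-mitotic map, 1322 of the 1761 members were present and 439 were not. Of the 1322, 46.6% were present without auxin only, 47.9% in both treatments and 5.52% with auxin only, which is 35.0%, 35.9% and 4.15% of all members. A boundary at both anchors was found in 0.227% of members with summit bins and in 8.35% with 50 kb windows, and a transcription start at both anchors in 59.5% with 30 kb windows. The convergent share was 35.5% with the looser core and 38.8% with the main core in 30 kb windows. Inside a structural loop lay 25.2% of members when only structural loops of strength 2 in mid-G1 were counted and 26.9% when their anchors had to lie at least 20 kb outside. Leaving out members of 70 kb, or the commonest core word, was chosen after seeing the data and moved none of the values it was applied to beyond the chromosome spread or the Wilson interval. Depth behind a single loop is unknown, so changes of single loops have no error.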
